A study of Mus musculus with 12 samples.

Results

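The 9 genes described here encode the surface proteins by which early lymphoid progenitors of the bone marrow (BM) are gated and staged: Flt3, Cd27, Il7r, Ly6d, Kit, Ly6a, Cd34, Slamf1 and Cd48. They were taken by gene name from a table of 32285 genes. All 9 were among the 13367 genes that passed the filter on low counts and were tested. RNA was sequenced from 2 progenitor populations, common lymphoid progenitors sorted as Ly6d- (CLPs) and multipotent progenitors sorted as Flk2+ (MPPs), taken from the BM of wild-type C57BL6/J mice aged 1 month (1MO) or 3 months (3MO), in 3 libraries for each of the 4 groups. The study compared the ages within each cell type, and the 12 libraries also allow the cell types to be compared at each age. No treatment or engineered allele is given for any group.

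A hematopoietic progenitor loses some surface receptors and gains others as its choices narrow. Flk2, the product of Flt3, and c-kit, the product of Kit, are receptor tyrosine kinases for growth factors that keep progenitors alive and dividing, and IL-7R carries the signal on which mouse B- and T-cell precursors depend. Because each stage has its own combination, antibodies to these proteins are used to sort BM cells, with Sca-1 (Ly6a), CD34, CD48 and CD150 (Slamf1) marking stem and multipotent stages and Ly6d marking the step toward the B lineage.

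The gates used some of these genes, which sets what can be read from each. Both populations were lineage-negative cells positive for Flk2 and CD27. As read from the study's gating plots, CLPs were then taken as IL-7R+ and Ly6d-, and MPPs as IL-7R-, c-kit+ and Sca-1+. The differences between CLPs and MPPs in Il7r, Kit and Ly6a are therefore a check of the labels, described without a test. Ly6d, which was gated against in CLPs alone, is also described without a test and checks no label. Flt3 and Cd27 were required in both gates, and Cd34, Slamf1 and Cd48 in neither. The gates act on protein, whereas the table holds RNA. In bulk RNA, fewer cells of a type and less RNA per cell cannot be told apart.

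Levels are given as CPM, the count scaled by TMM to a library of common size, as mean ± SD of 3 libraries. The estimated counts summed to between 8889083 and 20677785 per library, and 12379 to 15512 genes were detected. Summed transcripts of 10 erythroid genes, which lineage depletion should leave scarce, were 105 to 170 CPM in the 4 libraries numbered 3 and 20.0 to 37.9 CPM in the other 8. Summed transcripts of 7 stromal genes were 204 to 581 CPM in 1MO CLPs, 0 to 7.75 CPM in 3MO CLPs, 13.6 to 77.9 CPM in 1MO MPPs and 5.39 to 13.3 CPM in 3MO MPPs. The part of either in the results below was not tested beyond the fits without the libraries numbered 3.

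To set the genes side by side, CPM was divided by the exonic length of each gene in kb. On this per-length scale Flt3 stood first in all 4 groups, at 231 ± 15.01 in 1MO CLPs, 237 ± 3.84 in 3MO CLPs, 186 ± 10.3 in 1MO MPPs and 213 ± 11.6 in 3MO MPPs. In CLPs it was followed by Il7r, at 79.5 ± 8.07 and 72.8 ± 7.60 at 1MO and 3MO, and by Cd34, at 67.8 ± 10.2 and 69.0 ± 8.36. In MPPs it was followed by Cd34, at 108 ± 9.87 and 111 ± 20.6, and by Kit, at 82.7 ± 7.04 and 85.1 ± 3.86. Slamf1 was near 0 everywhere. The order depended on the length used. With coding length Cd34 passed Il7r in CLPs and passed Flt3 in MPPs, at 683 against 383 CPM per coding kb at 1MO and 697 against 439 at 3MO.

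**Figure D1:**
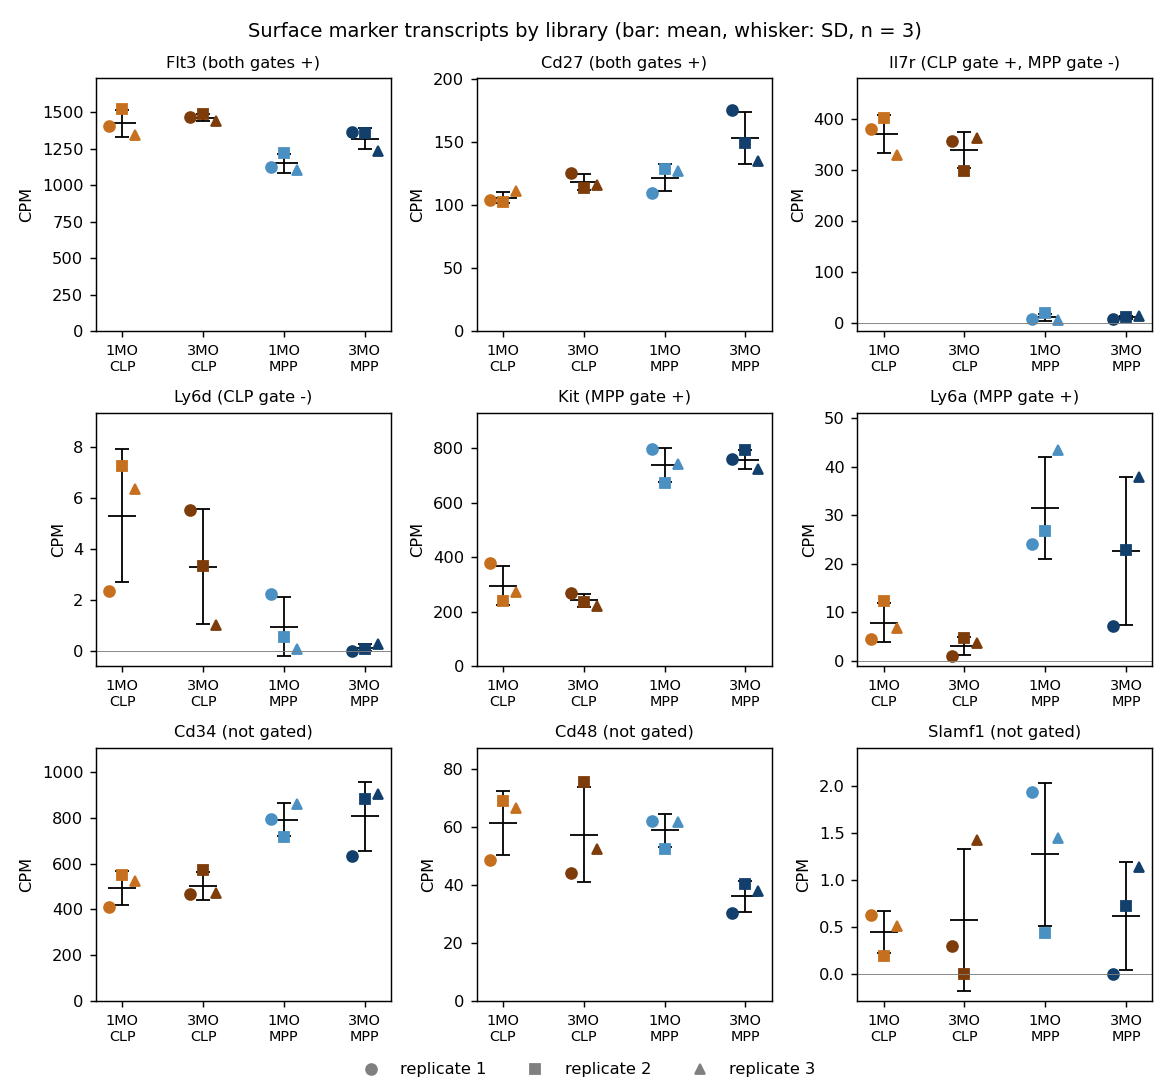
CPM of each surface marker (vertical axes, linear and including 0) in 1MO and 3MO CLPs and MPPs, with 1 point per library, the replicate number as the symbol, a bar for the mean and whiskers for the SD of 3 libraries. Il7r separates the cell types in one direction and Kit and Cd34 in the other, while Flt3 and Cd27 are present in every library and Slamf1 stays at or below 1.93 CPM.

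Flt3, the defining receptor of these Flk2+ cells, was abundant in every library. Its level was 1407, 1524 and 1341 CPM in 1MO CLPs, 1466, 1484 and 1437 CPM in 3MO CLPs, 1125, 1223 and 1103 CPM in 1MO MPPs and 1363, 1355 and 1236 CPM in 3MO MPPs. The CLPs lay above the MPPs at both ages without overlap, and the 3MO MPPs lay above the 1MO MPPs without overlap. None of these differences passed the test. The log2 fold change of CLPs against MPPs was 0.31 (SE 0.12) at 1MO and 0.15 (SE 0.12) at 3MO, with edgeR adjusted p = 0.207 and 0.59. That of 3MO against 1MO was 0.04 (95% interval -0.22 to 0.30) in CLPs and 0.20 (-0.07 to 0.46) in MPPs, so that a change with age of more than 1.37-fold lay outside both intervals. Flt3 (chr5:147330741-147400489, minus strand, GRCm38) overlaps the antisense gene Gm26597 at its 5′ end.

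Cd27, a receptor of the TNF receptor superfamily that binds CD70, was the other antigen required of both populations. It measured 104, 102 and 111 CPM in 1MO CLPs, 125, 113 and 116 CPM in 3MO CLPs, 109, 128 and 127 CPM in 1MO MPPs and 175, 149 and 135 CPM in 3MO MPPs. In both cell types every 3MO library exceeded every 1MO library. The log2 fold change with age was 0.16 (SE 0.15) in CLPs, with edgeR adjusted p = 0.946, and 0.33 (SE 0.15) in MPPs, with adjusted p = 1 and unadjusted p = 0.046. CLPs were at -0.20 (SE 0.15) against MPPs at 1MO and at -0.37 (SE 0.15) at 3MO, with adjusted p = 0.649 and 0.189. Cd27 (chr6:125232622-125237010, minus strand, GRCm38) lies within the span of Vamp1 on the opposite strand. Where their exons overlap, which was not checked, reads could be told apart only if the counting used strand. That setting is not given in the sources used here.

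Il7r encodes the IL-7 receptor alpha chain, which splits the gates. Its level was 381, 402 and 329 CPM in 1MO CLPs and 357, 299 and 363 CPM in 3MO CLPs, against 7.39, 18.5 and 5.24 CPM in 1MO MPPs and 7.72, 10.6 and 12.8 CPM in 3MO MPPs. CLPs and MPPs were far apart in all 12 libraries, as their labels state. The fitted ratio of CLPs to MPPs was 36.5-fold at 1MO and 32.5-fold at 3MO. At 1MO it came to 58.9-fold without MPP replicate 2, the library at 18.5 CPM. The MPPs, though sorted as IL-7R-, were not at 0, with 73 to 180 estimated Il7r counts in each of their 6 libraries. Within each cell type the ages overlapped, and the log2 fold change with age was -0.13 (95% interval -0.78 to 0.53) in CLPs and 0.04 (-0.68 to 0.77) in MPPs. Il7r lies at chr15:9505788-9530176 on the minus strand of GRCm38.

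Ly6d encodes a small membrane-anchored protein of the LY6 family, and its absence from the surface was a condition of the CLP gate. Its transcript was scarce in all groups. It reached 2.34, 7.26 and 6.35 CPM in 1MO CLPs and 5.55, 3.32 and 1.03 CPM in 3MO CLPs, from between 13 and 147 estimated counts per library. In MPPs the estimated counts were 28, 5 and 1 at 1MO against 0, 1 and 4 at 3MO, where the 0 allows up to 0.317 CPM. Within each age the CLP libraries lay above the MPP libraries without overlap, at 1MO narrowly, with 2.34 CPM in the lowest CLP library and 2.25 CPM in the highest MPP library. The transcript was thus higher in the cells gated against the surface protein. Across ages that MPP library, with 28 counts, exceeded the lowest 3MO CLP library. With age the log2 fold change was -0.69 (SE 1.10, edgeR adjusted p = 0.968) in CLPs and -2.83 (SE 1.30, adjusted p = 1) in MPPs, the latter on 1 to 28 against 0 to 4 counts. In CLPs it came to -1.29 without 3MO replicate 1 and to -0.13 without all libraries numbered 3. In MPPs it came to -1.12 without 1MO replicate 1, which held the 28 counts, -4.26 without 3MO replicate 3, and -4.81 without all libraries numbered 3. Summed transcripts of 10 B-lineage genes were 176 to 218 CPM in 1MO CLPs, 134 to 164 CPM in 3MO CLPs and 15.2 to 27.5 CPM in MPPs. Among them Ebf1, a transcription factor of B-cell specification, was at 63.7 ± 11.8 CPM in 1MO CLPs, 28.4 ± 8.92 CPM in 3MO CLPs, 0.487 ± 0.356 CPM in 1MO MPPs and 1.91 ± 0.967 CPM in 3MO MPPs, and its age difference was not called in either cell type.

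Kit encodes c-kit, the receptor for stem cell factor, which the MPP gate required. The stretch shown next is the sequence upstream of its RefSeq start site at position 75574987, cut where the annotated gene begins, and is shown beside that of Cd34 because both transcripts were lower in CLPs than in MPPs. Both are from RefSeq on GRCm38.p6, plus strand, 5′ to 3′, and capitals mark a match to the ETS-factor motif searched as AGGAAG on both strands.
Kit, chr5:75574737-75574915: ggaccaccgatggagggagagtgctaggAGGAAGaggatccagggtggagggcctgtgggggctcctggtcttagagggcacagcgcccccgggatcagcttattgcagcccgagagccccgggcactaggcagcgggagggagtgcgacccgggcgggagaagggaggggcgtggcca
Cd34, chr1:194938571-194938818: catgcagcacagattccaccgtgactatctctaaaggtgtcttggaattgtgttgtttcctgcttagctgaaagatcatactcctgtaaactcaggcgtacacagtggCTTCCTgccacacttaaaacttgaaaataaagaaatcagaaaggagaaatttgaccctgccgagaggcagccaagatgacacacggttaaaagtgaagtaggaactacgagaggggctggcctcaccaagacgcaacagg
The match began 222 bases before the start site in Kit and 142 bases before it in Cd34. In the 250 bases upstream of the start site, AGGAAG was found in 4 of the 7 markers with a promoter entry (Il7r, Kit, Cd34 and Slamf1) and in 29.5% of all 32851 promoters. The motif searched for RUNX factors, TGTGGT, was found in Cd48 alone among the 7 and in 14.05% of all promoters. AGATAA, the GATA motif, was found in 0 of the 7 and in 9.99%, and the E-box CAGNTG in 4 of the 7 and in 44.8%. The motifs searched do not share letters at any of these matches.

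Kit was at 377, 238 and 272 CPM in 1MO CLPs and 267, 236 and 222 CPM in 3MO CLPs, and at 797, 672 and 741 CPM in 1MO MPPs and 760, 792 and 723 CPM in 3MO MPPs. Each CLP library was below each MPP library. The ratio fitted at 1MO was 2.49-fold in favour of MPPs and that at 3MO was 3.14-fold, far less than the separation of the cell types by Il7r, and no CLP library fell under 222 CPM. The ages overlapped in CLPs, where the log2 fold change was -0.29 (SE 0.17, edgeR adjusted p = 0.896), and in MPPs, where it was 0.04 (SE 0.17, adjusted p = 1). Kit occupies chr5:75574916-75656722 on the plus strand.

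**Figure D2:**
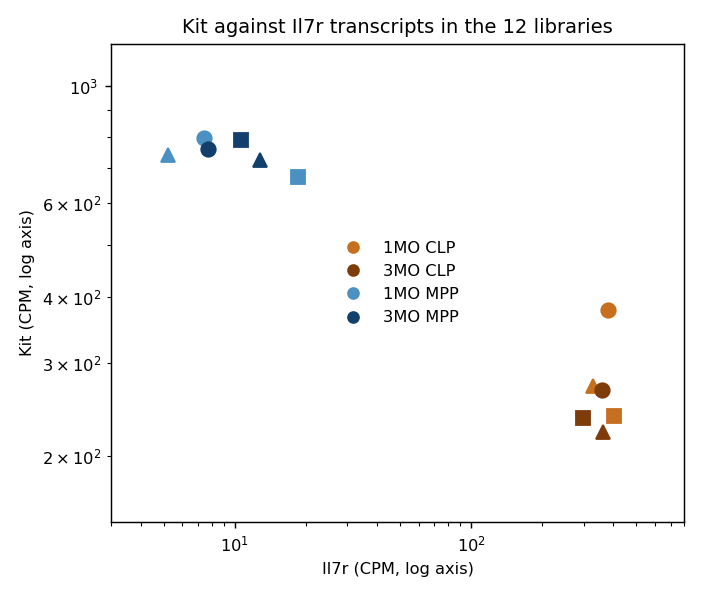
Kit (vertical axis, CPM, log scale) against Il7r (horizontal axis, CPM, log scale), 1 point per library, coloured by group, with the symbol giving the replicate number as in the plot of levels by library. The 6 CLP libraries lie at 299 to 402 CPM of Il7r and 222 to 377 CPM of Kit, the 6 MPP libraries at 5.24 to 18.5 CPM of Il7r and 672 to 797 CPM of Kit, and the ages are mixed within each cluster.

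Ly6a encodes Sca-1, the LY6-family antigen of mouse stem and multipotent cells that the MPP gate required. It was at 4.41, 12.3 and 6.73 CPM in 1MO CLPs, 1.01, 4.59 and 3.56 CPM in 3MO CLPs, 24.03, 26.8 and 43.4 CPM in 1MO MPPs and 7.19, 22.8 and 37.8 CPM in 3MO MPPs. CLPs were below MPPs at each age, although the lowest 3MO MPP library was under the highest 1MO CLP library. The fitted ratio was 4.01-fold in favour of MPPs at 1MO and 7.27-fold at 3MO, the latter 4.84-fold without 3MO MPP replicate 3. Ly6a varied among libraries sorted with the same gate, from 7.19 to 37.8 CPM in 3MO MPPs, and at both ages its highest MPP library was the one numbered 3. In CLPs its log2 fold change with age was -1.33 (SE 0.59, 95% interval -2.58 to -0.08), with unadjusted p = 0.0386 and edgeR adjusted p = 0.836, and 1 of the 3MO libraries lay within the 1MO range. In MPPs it was -0.47 (SE 0.56, adjusted p = 1), and came to -1.06 without 3MO replicate 3 and to -0.05 without 3MO replicate 1. Stromal transcripts were also higher in 1MO than in 3MO CLPs, and their part in the Ly6a values was not tested. Ly6a lies at chr15:74994877-74998031, 231 kb from Ly6d at chr15:74762056-74763620, both on the minus strand, in a cluster of related genes whose similar sequences can share reads, so its count is uncertain to that extent.

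Cd34, a sialomucin that marks hematopoietic progenitors, was used in neither gate. It reached 410, 548 and 525 CPM in 1MO CLPs, 465, 573 and 470 CPM in 3MO CLPs, 793, 718 and 861 CPM in 1MO MPPs and 634, 883 and 905 CPM in 3MO MPPs. Every CLP library was below every MPP library. The log2 fold change of CLPs against MPPs was -0.68 (SE 0.17, edgeR adjusted p = 0.0294) at 1MO and -0.68 (SE 0.17, adjusted p = 0.0263) at 3MO, a level 1.6- and 1.61-fold lower in CLPs. The call was fragile when libraries were left out, and the direction was not. With DESeq2 size factors, other filters, the replicate block, thinning or DESeq2's Wald test, Cd34 stayed called at both ages. At 1MO adjusted p was 0.109, 0.0564 and 0.0688 without CLP replicate 1, 2 or 3, 0.0911 and 0.108 without MPP replicate 1 or 3, and 0.0481 without MPP replicate 2. At 3MO it was 0.116 and 0.107 without CLP replicate 1 or 3, 0.0935 and 0.0902 without MPP replicate 2 or 3, 0.0353 without CLP replicate 2, 0.00719 without MPP replicate 1, and 0.0771 when only the 6 libraries compared were fitted (0.0336 at 1MO). Without the 4 libraries numbered 3, the log2 fold changes were -0.65 and -0.54, with adjusted p = 0.239 and 0.284. With age the log2 fold change was 0.02 (95% interval -0.34 to 0.39) in CLPs and 0.03 (-0.33 to 0.39) in MPPs. Cd34 (chr1:194938819-194961279, plus strand, GRCm38) overlaps the antisense gene Gm16897.

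Cd48 and Slamf1 encode SLAM-family receptors, CD48 and CD150, which together divide stem from multipotent cells, and the genes lie 61.9 kb apart on the plus strand of chromosome 1 (Cd48 chr1:171682009-171705258, Slamf1 chr1:171767127-171801184, GRCm38). Cd48 was at 48.8, 69.1 and 66.8 CPM in 1MO CLPs, 44.2, 75.7 and 52.5 CPM in 3MO CLPs, 62.4, 52.5 and 61.9 CPM in 1MO MPPs and 30.2, 40.5 and 37.8 CPM in 3MO MPPs. The 3MO MPPs lay below the other groups, overlapping with none of them. In MPPs the log2 fold change with age was -0.70 (SE 0.23, 95% interval -1.19 to -0.21), a level 1.63-fold lower at 3MO, which ranked 87 by p among all genes tested (unadjusted p = 0.00822) and did not pass the adjustment (edgeR adjusted p = 1). It lay between -0.79 and -0.59 when each library, or the 4 numbered 3, was left out. In CLPs it was -0.10 (SE 0.23), and the age effect in CLPs minus that in MPPs was 0.60 on the log2 scale (SE 0.33, adjusted p = 1). CLPs against MPPs were at 0.06 (SE 0.23, adjusted p = 0.968) at 1MO and 0.67 (SE 0.23, adjusted p = 0.111) at 3MO. The span of Cd48 holds Gm37010, annotated on the same strand, from which strand alone could not separate its reads.

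Slamf1 was close to the detection limit. It had 7, 4 and 8 counts in 1MO CLPs, 3, 0 and 18 in 3MO CLPs, 24, 4 and 24 in 1MO MPPs and 0, 10 and 16 in 3MO MPPs, or 0 to 1.93 CPM, and a count of 0 allows up to 0.166 CPM in that CLP library and 0.317 CPM in that MPP library. The libraries of each group overlapped with those of every other, and the 95% intervals of its log2 fold changes ran from -2.97 to 3.71 with age in CLPs and from -4.32 to 2.29 in MPPs. A difference in Slamf1 was not detectable at this depth.

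For age, 0 of the 9 markers were called in CLPs and 0 in MPPs by edgeR, against 0.0748% of all genes tested in CLPs (10 genes) and 0.0224% in MPPs (3 genes). DESeq2's Wald test called 0 of the 9 in each cell type as well, with 65 and 35 genes called in all. At an unadjusted p under 0.05 there was 1 marker in CLPs (Ly6a) and 3 in MPPs (Cd27, Ly6d and Cd48), where 5.9% and 3.48% of all genes were below it. The ages did not overlap for 1 marker in CLPs (Cd27, higher at 3MO) and for 3 in MPPs (Flt3 and Cd27, higher, and Cd48, lower), where 10.6% and 8.57% of all genes did not overlap. The median log2 fold change of the 9 was -0.10 in CLPs and 0.03 in MPPs, beside -0.01 and -0.01 over all genes tested. The difference of the age effects between the cell types was called for 0 of the 9 and for 0% of all genes by edgeR, with 0 of the 9 below an unadjusted p of 0.05 against 3.21% of all genes, and DESeq2 called 7 genes, none of them a marker. In simulated counts for age in CLPs, edgeR recovered 52% of 200 genes changed 3-fold. They were drawn at random from all genes tested, so this is not a rate for the 9 markers.

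**Figure D3:**
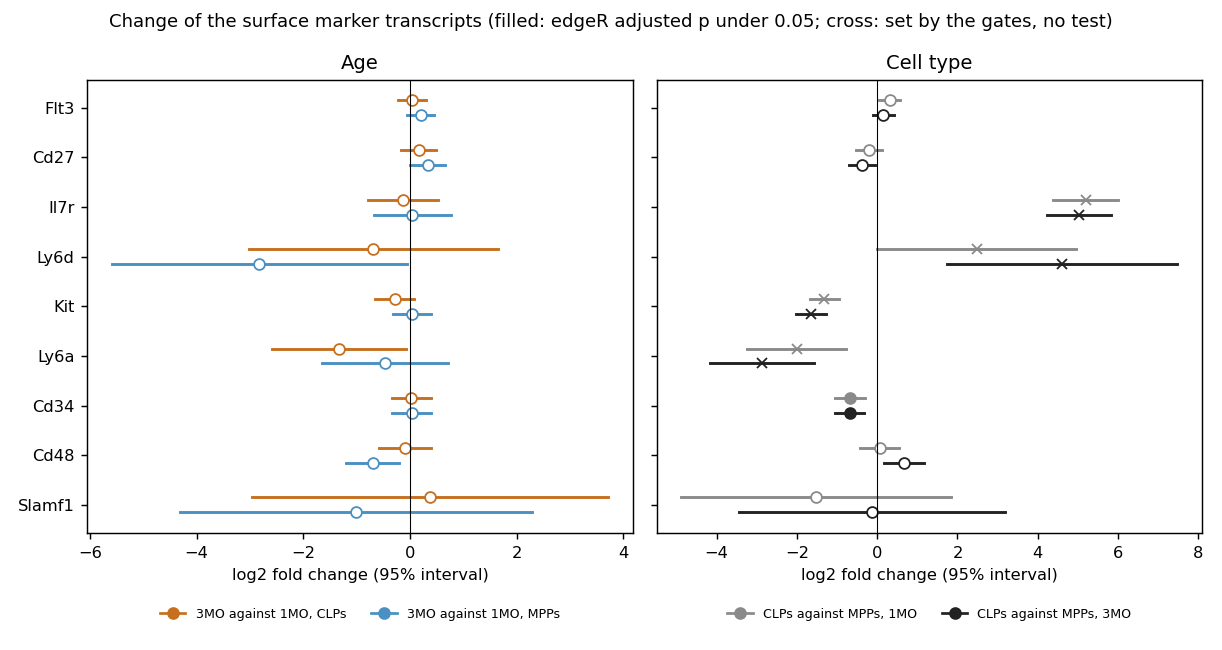
Log2 fold change of each surface marker (horizontal axes) with its 95% interval from edgeR, for 3MO against 1MO in CLPs and MPPs (left) and for CLPs against MPPs at each age (right). Filled circles passed an adjusted p of 0.05, open circles did not, and crosses mark the 4 genes that set the gates apart, which are shown without a test. No age value has a filled circle, though the unadjusted intervals of Ly6a in CLPs and of Cd27, Ly6d and Cd48 in MPPs exclude 0. The intervals of Ly6d and Slamf1 are the widest. On the right Cd34 is the marker with filled circles, at -0.68 at both ages.

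Between the cell types, among the 5 markers that did not set the gates apart, edgeR called Cd34 alone, lower in CLPs at both ages, where 5.38% of all genes were called at 1MO and 6.07% at 3MO. Over both ages, Cd34 separated the 6 CLP from the 6 MPP libraries without overlap, as did 8.79% of all genes. Il7r and Kit also did so, on which the cells were sorted.

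The molecules with which these receptors work were followed as lists. Of 29 receptor partners, kinases and adaptors, 28 were tested, of which 0 were higher and 2 lower in CLPs at 1MO, against 5.38% of all genes called, and 3 were higher and 2 lower at 3MO, against 6.07%. The count at 1MO is near that share, and nothing is read from it about the list. The 2 lower genes were the same at both ages. Il2rg, the common gamma chain that pairs with IL-7R alpha, was at 48.9 ± 8.31 CPM in 1MO CLPs and 42.7 ± 3.38 CPM in 3MO CLPs, against 81.4 ± 10.8 CPM in 1MO MPPs and 74.0 ± 12.1 CPM in 3MO MPPs. Jak3, the kinase bound to that chain, was at 150.0 ± 18.6 and 166 ± 21.8 CPM in CLPs against 243 ± 16.6 and 268 ± 40.3 CPM in MPPs. Their log2 fold changes were -0.73 (adjusted p = 0.0411) and -0.70 (adjusted p = 0.0201) at 1MO, and -0.79 (adjusted p = 0.0257) and -0.69 (adjusted p = 0.0208) at 3MO. At 3MO the highest calls were Socs2, an inhibitor of cytokine signaling, at 32.1 ± 3.30 CPM in CLPs against 5.57 ± 2.40 CPM in MPPs, and Pik3cd, a PI3-kinase subunit, at 351 ± 19.5 against 193 ± 29.9 CPM. None of the 28 was called with age.

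Among the families of the markers single genes were called, which is not read as a change of a family, since 5.38% of all genes were called at 1MO and 6.07% at 3MO. Of the LY6 genes, 5 of 15 were tested, and Ly6c2 was called at 1MO, at 29.6 ± 2.31 CPM in CLPs against 9.71 ± 5.12 CPM in MPPs (log2 fold change 1.62, adjusted p = 0.0251), opposite to Ly6a. Of 9 SLAM genes 8 were tested and Cd84 was called at 3MO, lower in CLPs at 64.6 ± 9.21 against 111 ± 1.17 CPM (log2 fold change -0.78, adjusted p = 0.0136). Of 5 class III receptor tyrosine kinases 4 were tested, and Csf1r, the receptor for M-CSF, was higher in CLPs at both ages, at 98.1 ± 11.8 and 80.1 ± 32.4 CPM against 38.5 ± 6.49 and 34.2 ± 11.5 CPM (log2 fold change 1.35 and 1.23, adjusted p = 0.0135 and 0.0234), while Kit was lower. Of 16 TNF receptors 13 were tested, and Tnfrsf14 was called at 3MO, at 39.8 ± 3.79 CPM in CLPs against 18.5 ± 7.12 CPM in MPPs (log2 fold change 1.10, adjusted p = 0.0294). The other CD34 sialomucins, Podxl and Podxl2, were not called in any comparison.

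Antigens of neighbouring stages were counted in the same way, beside 5.38% of all genes called at 1MO and 6.07% at 3MO. Of 10 stem cell surface antigens, all tested, 4 were lower in CLPs at 1MO and 6 at 3MO, and 0 were higher. Their median log2 fold change was -1.09 at 1MO and -1.66 at 3MO, beside -0.02 and -0.03 over all genes tested. Procr, the endothelial protein C receptor, was at 0.605 ± 0.278 and 0.359 ± 0.390 CPM in 1MO and 3MO CLPs against 16.2 ± 3.36 and 10.6 ± 0.755 CPM in MPPs. Of 13 lymphoid progenitor antigens 12 were tested, of which 8 were higher in CLPs at 1MO and 6 at 3MO, with 0 lower. Their median log2 fold change was 1.01 at 1MO and 0.94 at 3MO. Of 8 myeloid progenitor antigens, 2 were higher in CLPs and 1 lower at each age. None of these antigens was called with age.

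**Figure D4:**
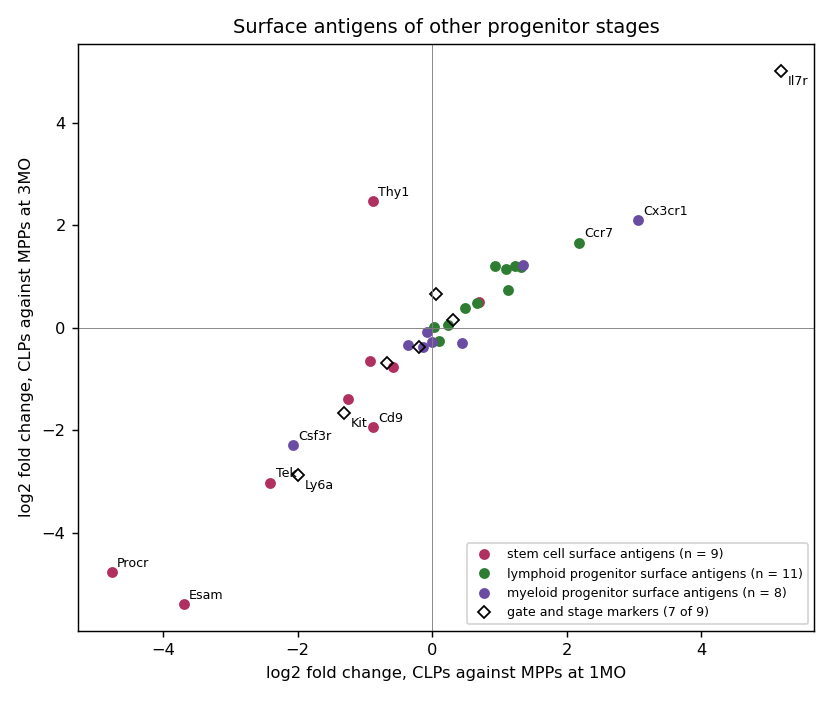
Log2 fold change of CLPs against MPPs at 3MO (vertical axis) against that at 1MO (horizontal axis) for the surface antigens of stem cells, lymphoid progenitors and myeloid progenitors that were tested and are reported here, with 7 of the 9 gate and stage markers as open diamonds (Ly6d and Slamf1, with the lowest counts, are left out). The ages use separate libraries, and Procr and Esam lie at the lower left with Ly6a and Kit while Ccr7 and Cx3cr1 lie at the upper right toward Il7r. Genes are named where a value exceeds 1.4 on either axis, whether or not they were called, and Thy1, at the upper left, was not.

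Markers of cells that the gates could hold besides the intended ones were also read. Between the cell types, 5.38% of all genes were called at 1MO and 6.07% at 3MO, and with age 0.0748% in CLPs and 0.0224% in MPPs. Of 9 lineage-depletion antigens 3 were tested, and 0 were called. Their summed level of 35.2 to 92.7 CPM was almost all Itgam, which encodes CD11b and was singled out after its values were seen, at 34.1 to 90.9 CPM per library, while the other 8 together reached 0.402 to 6.09 CPM. Among 6 plasmacytoid dendritic genes, 4 were higher in CLPs at each age, and their summed level was 809 to 1069 CPM in CLPs and 104 to 161 CPM in MPPs. In CLPs most of that sum was Irf8, a transcription factor also used by other lineages, at 682 to 897 CPM in CLPs and 51.3 to 99.6 CPM in MPPs, while Siglech, a more specific marker, was at 69.3 ± 6.83 and 55.8 ± 6.07 CPM in 1MO and 3MO CLPs. Of 10 B-lineage genes 8 were tested, with Ebf1 and Blnk higher in CLPs at 1MO and these with Pax5 at 3MO. Pax5 was at 12.5, 0.498 and 1.34 CPM in 3MO CLPs against 0 in each 3MO MPP library, and at 1MO, at 18.0 ± 10.7 CPM in CLPs, it was not called (adjusted p = 0.0591). Of 6 endothelial genes, Tie1 and Emcn were lower and Pecam1 higher in CLPs at both ages, and of 10 myeloid granule genes Elane was higher at 1MO and Prtn3 lower at 3MO. T-cell, erythroid, megakaryocyte and NK or innate lymphoid lists had 2 of 8, 10 of 10, 4 of 6 and 5 of 7 genes tested and none called. Like the 0 of the lineage-depletion antigens, these counts are near the share over all genes, and nothing is read from them. In the stromal list, with 4 of 7 tested, Col1a1 and Col1a2 were called with age in CLPs, at 223 ± 153 and 100.3 ± 58.9 CPM at 1MO and 0.639 ± 1.11 and 0.554 ± 0.959 CPM at 3MO. Col1a2 was also higher in CLPs than in MPPs at 1MO (log2 fold change 2.699, adjusted p = 0.0353) and lower at 3MO (-3.26, adjusted p = 0.0409). Col1a1 and Col1a2 were the listed genes called with age.

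For the markers whose group means differed at least 2-fold, the genes with the most similar pattern over the 12 libraries were sought by the root mean square difference of centred log2 CPM, where a smaller value means a closer pattern. Nearest to Il7r was Blnk, an adaptor of B-cell receptor signaling, at 0.64, and then Gpr25 and Strip2 at 0.69 each, beside 2.63 for the variation of Il7r about its own mean. Nearest to Kit were Tal1, a transcription factor of hematopoietic stem and progenitor cells, and Cers4, at 0.18 each, and Ddx58, which encodes the RNA sensor RIG-I, at 0.21, beside 0.77 for Kit itself. Tal1 was at 37.2 and 38.3 CPM in 1MO and 3MO CLPs and at 100.1 and 102 CPM in MPPs. Nearest to Ly6a were Krt7 at 0.60 and the interferon-inducible genes Rsad2 and Ifitm3 at 0.65 and 0.67, beside 1.53 for Ly6a itself. Rsad2 was at 13.1, 8.18, 34.9 and 24.6 CPM in 1MO CLPs, 3MO CLPs, 1MO MPPs and 3MO MPPs. Nearest to Ly6d were Gm11342, P2ry12 and Cecr2 at 0.77 to 0.99, and to Slamf1 Gm17024, Gm36371 and Gcsam at 0.61 to 0.65, both on counts too low to give the likeness weight.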

How the data were processed

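RNA of CLPs and MPPs was measured in 12 libraries of polyadenylated RNA. The authors processed the reads with FastQC, UMI-tools, Trim Galore, SortMeRNA, STAR and Salmon and deposited a table of estimated counts for each gene, adjusted for transcript length but not for depth. The build named is mm10, the library kit was directional, and the annotation release and the strand setting of the counting are not given in the sources used here. Each of the 12 columns matched 1 sample's name, with 0 left over. Counts were rounded and tested with edgeR 4.0.16 in R 4.3.3 (filterByExpr, TMM, quasi-likelihood, 1 fit of 4 groups, Benjamini-Hochberg over 13367 genes, threshold 0.05). DESeq2 1.42.0 was an alternative. The members and lists were chosen with earlier results of these data known. Named were the 9 markers, the 3 genes with the most similar pattern for each marker varying at least 2-fold, listed genes called with age, and the 2 highest and 2 lowest calls of a list between cell types, of which some are given and some are not reported here. Gene positions are from GENCODE vM21 and promoters from RefSeq, with entries for 7 of the 9. A count of 0 was taken to allow 3 counts, and this limit covers counting error only. Replicates came from 3 independent experiments. Nothing used here states outright that equal numbers share an experiment, so the libraries were not treated as pairs in the main fit. The S numbers in the column names run through all 4 libraries of 1 replicate number before the next. The study sorted both cell types per mouse. The deviations of same-numbered libraries correlated over 0.1 in 5 of 18 pairs (1 of 36 for different numbers), which cannot decide the pairing. Scripts were tested on simulated data. Alternatives were other size factors, filters, thinning of each library to the smallest total count, a replicate block, fits of 6 libraries, each library left out and, chosen after seeing the data, all libraries numbered 3 left out.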

Additional observations from a re-analysis of the deposited data

How the results depend on the processing

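With a library, or all libraries numbered 3, left out, 320 of 364 marker log2 fold changes kept their direction and side of the threshold. Under other settings 279 of 292 did. Values that were never called count as kept, so these counts do not measure how firm a call was. With libraries left out, 12 of the 364 lost their call. Cd34 in CLPs against MPPs kept its call in 1 of 7 such fits at 1MO and 2 of 7 at 3MO. No age difference passed under any alternative run. The number of markers called in CLPs against MPPs was 3 at 1MO and 4 at 3MO, counts that include genes set by the gates and from which nothing is read. It was 5 at both ages with DESeq2's Wald test, and 4 and 5 with no filter. With libraries left out it lay between 2 and 3 at 1MO and between 2 and 4 at 3MO, where the 2 was without those numbered 3 and Slamf1 was not tested. Values near 0, or on the few counts of Slamf1, changed sign. With the replicate block, Slamf1 with age in CLPs came to -0.23 and the Cd34 interaction to 0.022. Thinning gave -0.00696 for Il7r with age in MPPs and 0.0037 for the Cd34 interaction. With libraries left out, log2 fold changes with age in CLPs ran from -0.0041 to 0.090 for Flt3, from -0.094 to 0.11 for Cd34, from -1.61 to 0.96 for Slamf1 and from -0.35 to 0.052 for Cd48. With age in MPPs they ran from -0.48 to 0.73 for Il7r, from -0.022 to 0.10 for Kit and from -0.061 to 0.18 for Cd34. In CLPs against MPPs they ran from -0.028 to 0.20 for Cd48 at 1MO and from -2.10 to 0.62 for Slamf1 at 3MO, and for the interaction from -0.86 to 0.21 for Il7r, from -0.15 to 0.11 for Cd34 and from -0.59 to 2.13 for Slamf1. The cause was not tested. Same-numbered libraries correlated at a median of 0.07, with 5 of 18 pairs over 0.1, against -0.03 and 1 of 36 for different numbers. A library was closest to its own number in 22 of 36 cases, where 12 would be if the number had no bearing, which is a hint from the data and not the design. The replicate block gave 0, 0, 4, 4 and 0 markers, and 11, 3, 915, 1007 and 0 genes in all, called for age in CLPs, age in MPPs, CLPs against MPPs at 1MO and 3MO, and the interaction. Over all genes, age calls were 10 in CLPs and 3 in MPPs, against 46 and 26 with no filter, 4 and 1 with at least 10 counts in every library, and 65 and 35 with DESeq2. Fits of 6 libraries gave 4 and 4 with age, and between the cell types 900 against 719 at 1MO and 435 against 812 at 3MO. DESeq2 called 1237 against 719 at 1MO and 1438 at 3MO, and for the interaction it called 7, and no filter 6, against 0. Without the libraries numbered 3 there were 2, 1, 258, 290 and 1 calls in the same order. The rank of a marker per length changed in 19 of 36 cases with coding length and in 11 with the longest coding transcript. By library total Flt3 averaged 1424 CPM in 3MO CLPs, in place of 1463. Slamf1 and, in MPPs, Ly6d were limited by depth.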
